A study of Mus musculus with 6 samples.

Results

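Mammalian cells make cholesterol and fatty acids from acetyl-CoA under the control of the sterol regulatory element binding proteins (SREBPs), and 39 genes of this system were followed in mouse embryonic fibroblasts (MEFs) with and without Anp32e. They were taken as a listed set of genes of cholesterol synthesis, transport and export, fatty acid synthesis and SREBP control. Their roles and not a threshold on their values set the list, which was drawn up with earlier results of these data known. They are 39 of the 25043 genes that could be matched in the authors' deposited table. All 39 had reads and an adjusted p-value, as did 17283 genes in all.

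RNA was sequenced from 3 samples of WT and 3 of Anp32e null (Anp32e-/-) MEFs to ask which genes change in expression when ANP32E, a chaperone that takes the histone variant H2A.Z off chromatin, is lost. Both groups were primary fibroblasts from embryos, below passage 8, grown in DMEM with 10% fetal bovine serum and antibiotics and seeded 1 day before RNA was isolated. The age and sex of the embryos and the number of embryos behind the 3 samples are not given in the sources used here, so the p-values measure the spread between these samples only. The table holds 1 mean normalized count over all 6 libraries, a log2 fold change (log2FC) of Anp32e-/- over WT and its standard error (SE) for each transcript, and no values per library.

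The group means below were therefore derived from each gene's mean and log2FC, and they carry no error of their own. The precision of each comparison is the SE of the log2FC (n = 3 per group), and the depth of each library is unknown. A gene was called increased or decreased at an adjusted p under 0.05 in the DESeq2 Wald test of the authors, and "past 0.5" means that its log2FC was also above 0.5 or below −0.5. In bulk RNA, fewer cells that express a gene and less of its RNA in each cell cannot be told apart.

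The SREBPs are made as membrane proteins of the endoplasmic reticulum. When sterols are scarce, SCAP escorts them to the Golgi, where proteases release the part that enters the nucleus and binds sterol regulatory elements in promoters. When sterols are plentiful, INSIG proteins hold the complex back. The product of Srebf2 acts mainly on genes of sterol synthesis and uptake and the main products of Srebf1 act mainly on genes of fatty acid synthesis, whereas the sterol exporters Abca1 and Abcg1 are driven by the liver X receptors (LXRs), which sense oxysterols.

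To show what kind of promoters these genes have, the 250 bases before the RefSeq start site (GRCm38.p6, each read 5′ to 3′ in the direction of its gene) are printed for 5 genes that were increased and for Fasn, which was not. Capitals mark matches on either strand to TCACNCCAC (a core of the sterol regulatory element), CCAAT (bound by NF-Y), GGGCGG (bound by Sp1) and CACGTG (the E-box, which SREBPs can also bind). In the order printed, the windows are Hmgcs1 (chr13:119690101-119690350, plus strand), Lss (chr10:76531355-76531604, plus strand), Cyp51 (chr5:4104698-4104947, minus strand), Insig1 (chr5:28071162-28071411, plus strand), Srebf2 (chr15:82147019-82147268, plus strand) and Fasn (chr11:120824548-120824797, minus strand).
Hmgcs1: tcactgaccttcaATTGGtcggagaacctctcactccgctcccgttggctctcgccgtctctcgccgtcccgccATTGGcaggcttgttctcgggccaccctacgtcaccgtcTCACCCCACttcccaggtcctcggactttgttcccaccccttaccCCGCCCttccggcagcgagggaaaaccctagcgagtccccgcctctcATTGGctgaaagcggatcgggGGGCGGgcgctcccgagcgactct
Lss: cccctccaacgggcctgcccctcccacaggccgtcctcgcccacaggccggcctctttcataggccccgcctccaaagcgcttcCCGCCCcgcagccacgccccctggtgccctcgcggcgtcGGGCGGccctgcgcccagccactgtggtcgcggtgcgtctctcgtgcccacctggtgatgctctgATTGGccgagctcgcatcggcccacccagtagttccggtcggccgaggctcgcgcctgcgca
Cyp51: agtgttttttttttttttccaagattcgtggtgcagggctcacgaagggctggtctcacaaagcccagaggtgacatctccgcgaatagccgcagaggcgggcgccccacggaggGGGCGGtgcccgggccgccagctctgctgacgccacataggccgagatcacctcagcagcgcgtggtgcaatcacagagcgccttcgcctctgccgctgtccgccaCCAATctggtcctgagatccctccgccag
Insig1: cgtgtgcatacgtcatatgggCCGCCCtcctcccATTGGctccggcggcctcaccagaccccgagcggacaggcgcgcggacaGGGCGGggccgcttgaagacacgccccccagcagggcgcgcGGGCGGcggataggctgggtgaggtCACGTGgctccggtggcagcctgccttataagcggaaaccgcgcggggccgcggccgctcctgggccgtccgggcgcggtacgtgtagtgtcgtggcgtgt
Srebf2: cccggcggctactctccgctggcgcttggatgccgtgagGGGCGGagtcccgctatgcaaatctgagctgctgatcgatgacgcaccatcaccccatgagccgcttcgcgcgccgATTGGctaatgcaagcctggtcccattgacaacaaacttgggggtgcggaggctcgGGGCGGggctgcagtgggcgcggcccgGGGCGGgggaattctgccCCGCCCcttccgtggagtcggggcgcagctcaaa
Fasn: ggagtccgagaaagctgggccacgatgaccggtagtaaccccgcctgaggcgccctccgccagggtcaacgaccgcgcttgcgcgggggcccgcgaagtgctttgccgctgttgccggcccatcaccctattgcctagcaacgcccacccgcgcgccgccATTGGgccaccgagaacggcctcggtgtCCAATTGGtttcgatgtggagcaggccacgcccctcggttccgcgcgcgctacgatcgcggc

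Of the 6 windows printed, the Hmgcs1 window held the only TCACNCCAC match, which lay at positions −137 to −129 from the start site. All 6 windows held CCAAT, most often as its reverse complement ATTGG, with 3 matches in Hmgcs1 and 3 in Fasn. GGGCGG was found in every printed window but that of Fasn, with 4 copies in Srebf2.

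Most of the 39 genes were higher in Anp32e-/- than in WT MEFs. Among the 37 autosomal genes of the set, 23 were increased, 1 was decreased and 13 were not called, whereas 16.8% of the 16697 autosomal genes with an adjusted p were increased and 14.2% were decreased. Past 0.5, 14 of the 37 were increased and 1 was decreased, against 8.63% and 8.2% of autosomal genes. The median log2FC of the 37 was 0.39, and that of all autosomal genes was −0.003. Nsdhl and Ebp lie on the X chromosome, which the study left out, and both were increased past 0.5 as well, which made 16 of the 39 genes past 0.5 against 8.67% of all genes with X and Y kept. The genes of the set were abundant, and 38 of the 39 reached a mean of 50 normalized counts. Of the autosomal genes that did so, 21.2% were increased and 9.75% were increased past 0.5.

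The calls are given here by step of the pathway. Of the 19 enzymes of sterol synthesis, from Acat2 to Dhcr7, 17 were increased with a median log2FC of 0.51, and the other two, Pmvk and Idi1, were not called. Of the 10 genes of fatty acid synthesis, desaturation and elongation, 4 were increased with a median of 0.15, and none of these 4 was an enzyme of the synthesis of palmitate. Abca1, which exports cholesterol, was the 1 gene of the set that was decreased. These are counts and medians of a chosen set, and the difference between its sterol and fatty acid genes was not tested.

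**Figure D1:**
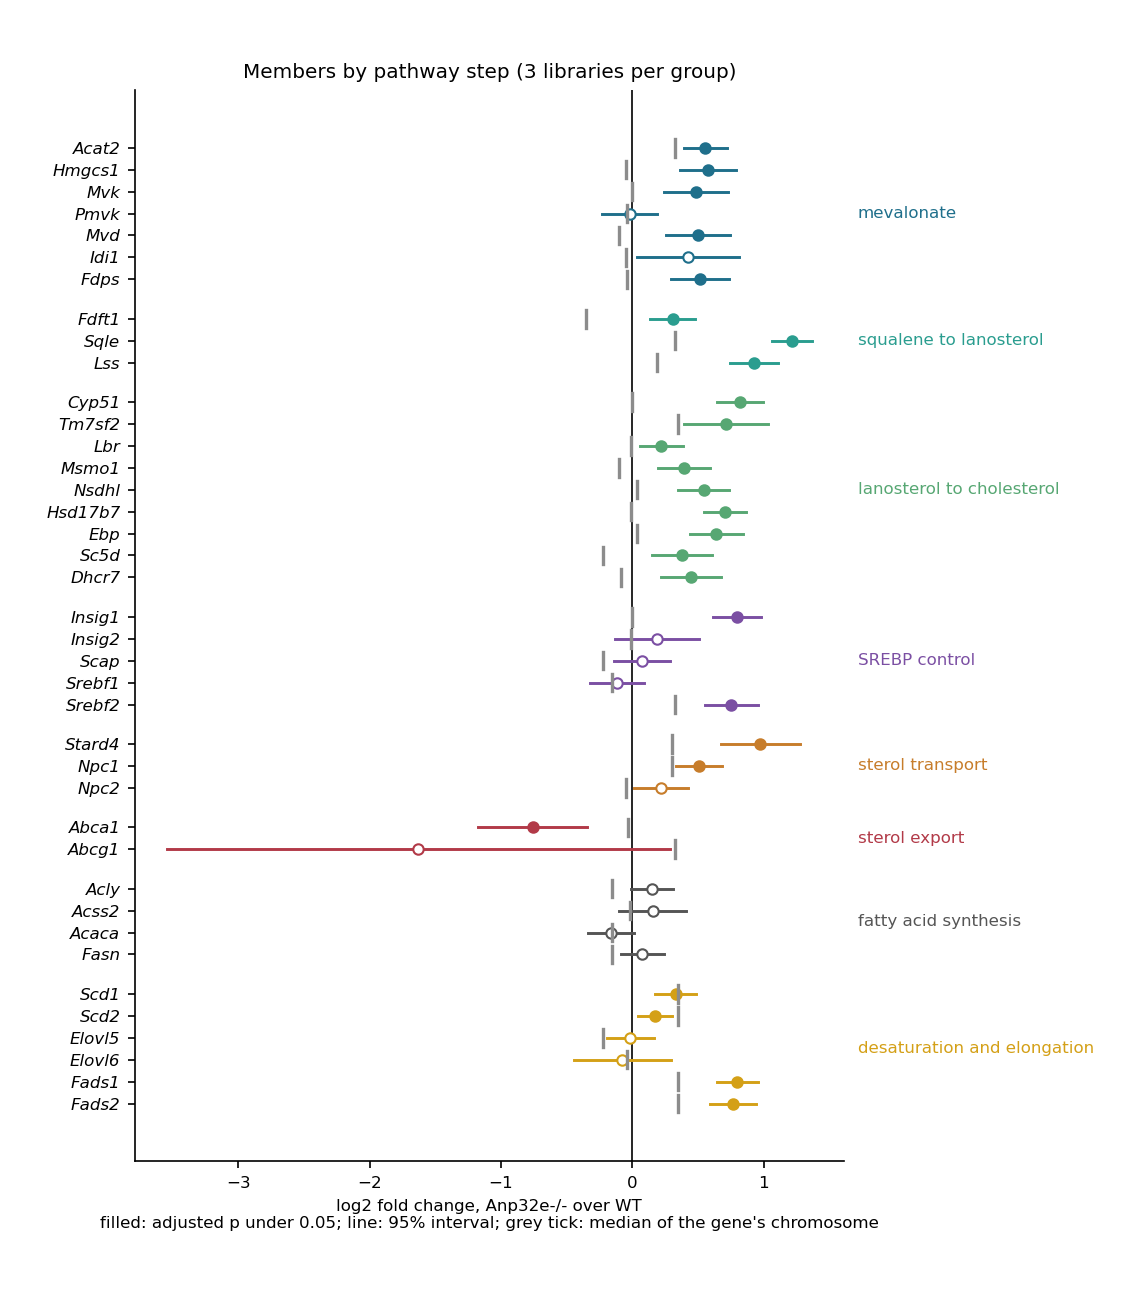
Log2FC of Anp32e-/- over WT MEFs (x axis) for the 39 genes, grouped by step; lines are 95% intervals from the authors' SE, filled points have an adjusted p under 0.05 and grey ticks mark the median of all genes with a mean of at least 10 on the same chromosome. Nearly all sterol synthesis enzymes lie to the right of 0, the 4 genes of fatty acid synthesis lie close to 0, and Abca1 and Abcg1 lie to the left.

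The mevalonate steps turn acetyl-CoA into farnesyl diphosphate, and 5 of their 7 genes were increased, with a median log2FC of 0.50. Hmgcs1, the HMG-CoA synthase, had the highest log2FC of the step, with 5534 normalized counts on average in WT MEFs and 8258 in Anp32e-/- MEFs (log2FC 0.58, SE 0.11, adjusted p = 1.07e-06 in the Wald test of DESeq2). Acat2, a thiolase that makes acetoacetyl-CoA, had means of 3237 and 4759 (log2FC 0.56). Fdps, which makes farnesyl diphosphate, had means of 9219 and 13146 (log2FC 0.51). Acat2 lies on chromosome 17, where the median log2FC was 0.32, and with the chromosome medians taken out the log2FC was 0.23 for Acat2, 0.55 for Fdps and 0.63 for Hmgcs1.

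The kinase that phosphorylates mevalonate, Mvk, had a log2FC of 0.49, and the decarboxylase Mvd one of 0.50. Between them in the pathway stands Pmvk, the phosphomevalonate kinase, whose means were 1556 and 1533 and whose log2FC was −0.02 (SE 0.11, adjusted p = 0.902 in the DESeq2 test). The 95% interval of Pmvk ran from −0.23 to 0.19 and so left out the estimates of Mvk and Mvd, although these differences were not tested. Idi1, the isopentenyl diphosphate isomerase, was also not called. Its means were 430 and 577, and its log2FC of 0.42 had an SE of 0.20 (adjusted p = 0.0895 in the DESeq2 test), so that its interval of 0.03 to 0.81 covered both a small and a large increase.

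The 3 genes that carry farnesyl diphosphate to lanosterol were all increased, with a median of 0.93, the highest of the 8 steps. Sqle, the squalene epoxidase and a rate-limiting enzyme of the pathway, rose from 3771 to 8738 normalized counts, with the highest log2FC of the 39 genes (1.21, SE 0.08, adjusted p = 3.08e-53 in the DESeq2 test). This is a fold of 2.32 with a 95% interval of 2.09 to 2.57, and Sqle was 48th among all autosomal genes when these were ranked by the Wald statistic. Lss, which closes the rings of lanosterol, rose from 3491 to 6639 (log2FC 0.93). Fdft1, the squalene synthase, had the lowest log2FC of the step (5485 and 6781, log2FC 0.31, SE 0.09, adjusted p = 0.00237 in the DESeq2 test).

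All 9 genes that turn lanosterol into cholesterol were increased, with a median of 0.54. Cyp51, the lanosterol demethylase, rose most of these, from 6708 to 11844 (log2FC 0.82, SE 0.09, adjusted p = 1.5e-18 in the DESeq2 test). Tm7sf2 and Lbr both encode sterol reductases that act after Cyp51. Tm7sf2 had means of 287 and 471.5 (log2FC 0.71). Lbr, which is also a receptor for lamin B at the inner nuclear membrane, had the lowest log2FC of the step and means of 5716 and 6666 (log2FC 0.22, SE 0.08, adjusted p = 0.025 in the DESeq2 test).

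The enzymes that remove the methyl groups next to the hydroxyl of the sterol were Msmo1, Nsdhl and Hsd17b7. Their log2FC were 0.39, 0.54 and 0.70. Ebp, the sterol isomerase that follows, had means of 2142 and 3338 (log2FC 0.64). The last steps are a desaturase and a reductase, Sc5d with a log2FC of 0.38 and Dhcr7 with one of 0.44. Dhcr7, which is mutated in Smith-Lemli-Opitz syndrome, was among the less abundant enzymes, with means of 478 and 650.

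Per kilobase of transcript, the sterol enzymes did not rank as they did by change. Fdps was the highest of the 38 genes with a known transcript length, at 6671 normalized counts per kb in WT MEFs and 9512 per kb in Anp32e-/- MEFs. Idi1 was the lowest of the sterol enzymes in both groups, at 142 and 190.5 per kb. Sqle stood at 1367 per kb in WT MEFs, close to Acat2 at 1438 and Fdft1 at 1483, and at 3168 in Anp32e-/- MEFs, where Fdft1 stood at 1834.

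**Figure D2:**
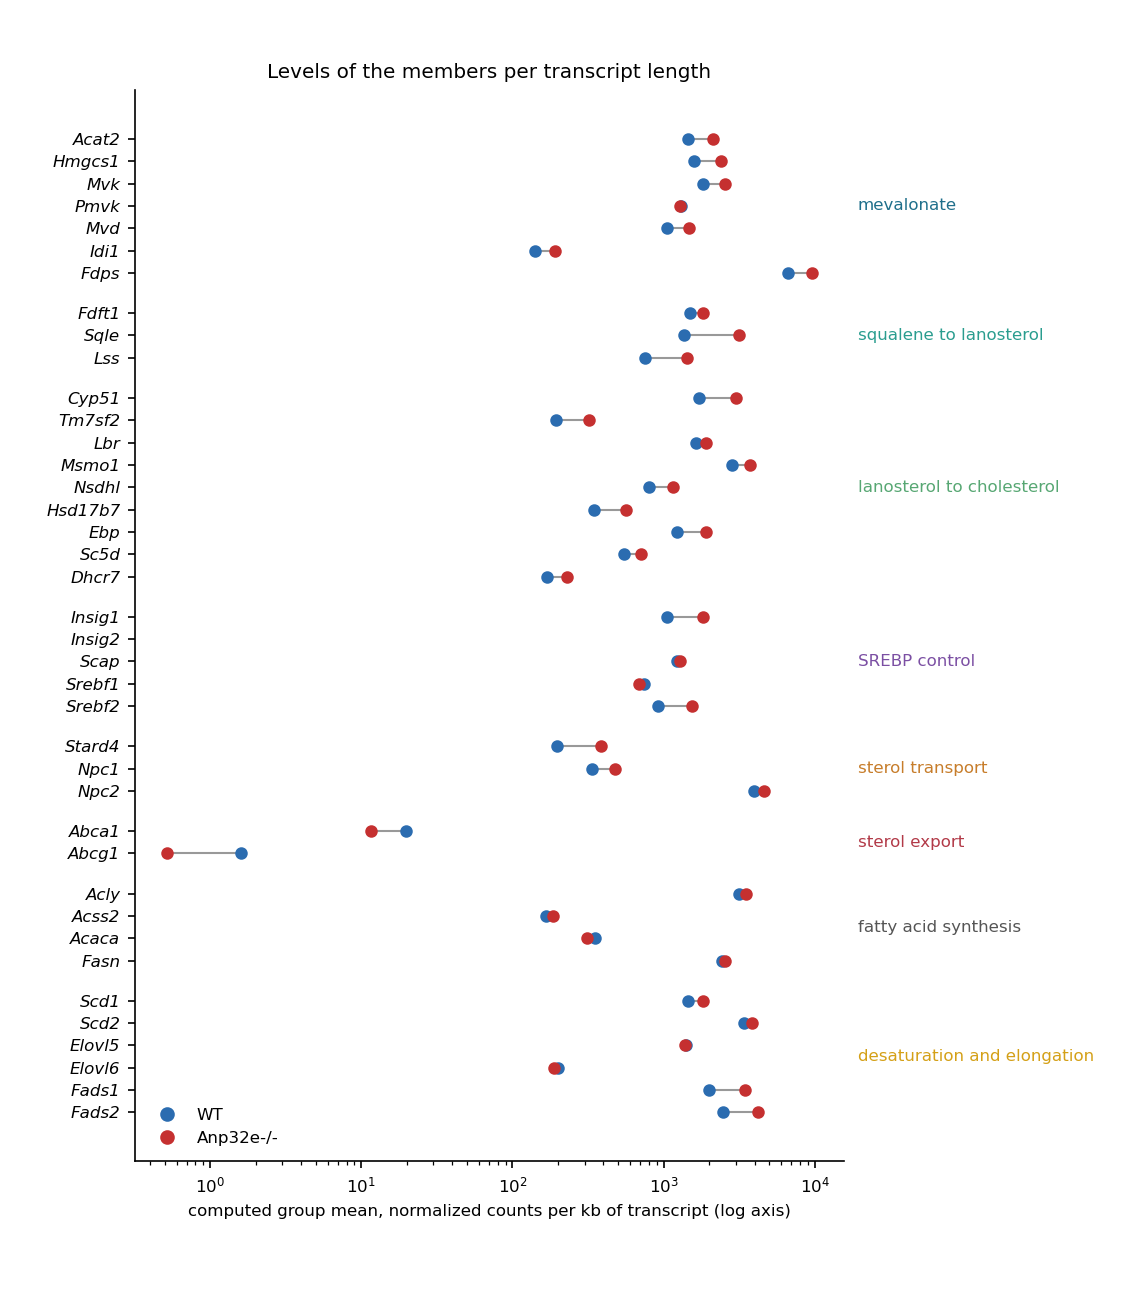
Computed group means of WT (blue) and Anp32e-/- MEFs (red) in normalized counts per kb of transcript, on a log axis, for the 38 genes with a transcript length (no point is drawn for Insig2); each mean stands for 3 libraries and has no error bar because the table holds no values per library. The gap between the points is widest among the sterol enzymes for Sqle, and Abca1 and Abcg1 are far below all other genes.

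Of the 5 genes of SREBP control, the SREBP gene Srebf2 and the retention factor Insig1 were increased and the other three were not called. Srebf2 rose from 4627 to 7798 normalized counts (log2FC 0.75, adjusted p = 4.07e-12 in the DESeq2 test). Srebf1 had means of 3205 and 2961 and the lowest log2FC of these genes (−0.11, SE 0.10, adjusted p = 0.442 in the DESeq2 test). The 95% intervals of the SREBP genes, 0.55 to 0.95 for Srebf2 and −0.32 to 0.09 for Srebf1, did not overlap, but the genes lie on chromosomes 15 and 11, where the median log2FC was 0.32 and −0.16. With these medians taken out, Srebf2 was at 0.43 and remained increased, Srebf1 was at 0.04, and their intervals of 0.23 to 0.63 and −0.16 to 0.25 overlapped. The difference between them was not tested. The table does not separate the promoters of Srebf1, whose transcripts had log2FC between −0.12 and −0.11.

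Insig1, which is itself an SREBP target and was the most changed of the control genes, rose from 2854 to 4948 (log2FC 0.79, SE 0.09, adjusted p = 5.41e-16 in the DESeq2 test). Its relative Insig2 had means of 595 and 677 (log2FC 0.19, SE 0.16, adjusted p = 0.414 in the DESeq2 test). Scap, the escort, had means of 5144 and 5408 (log2FC 0.07, SE 0.11, adjusted p = 0.663 in the DESeq2 test). The intervals of Scap, −0.14 to 0.28, and Insig2, −0.13 to 0.51, both lay below that of Insig1, 0.61 to 0.98.

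Of the genes that move sterols within the cell, Stard4, a soluble carrier of cholesterol, had the highest log2FC. It rose from 999.7 to 1964 normalized counts (log2FC 0.97, SE 0.15, adjusted p = 4.94e-09 in the DESeq2 test). Npc1, the membrane protein that takes cholesterol out of lysosomes, had means of 1765 and 2505 (log2FC 0.51). Its partner in the lysosome lumen, Npc2, was not called, with means of 13096 and 15244 (log2FC 0.22, SE 0.10, adjusted p = 0.096 in the DESeq2 test). Stard4 and Npc1 lie on chromosome 18, where the median gene had a log2FC of 0.30. With that median taken out, Stard4 had a log2FC of 0.67 and remained increased, whereas Npc1 had 0.20 and was no longer called (adjusted p = 0.088 in the recomputed Wald test).

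Both sterol exporters had a log2FC below 0, and Abca1 alone was called. Abca1, which passes cholesterol to apolipoproteins outside the cell, fell from 201 to 119 normalized counts (log2FC −0.76, SE 0.21, adjusted p = 0.00188 in the DESeq2 test). Abcg1, which passes cholesterol to lipoprotein particles, was nearly silent, with means of 9.39 and 3.04 (log2FC −1.63, SE 0.98, adjusted p = 0.204 in the DESeq2 test), and its interval of −3.54 to 0.28 included 0. The LXR genes were not called. Nr1h2 had means of 2446 and 2672 (log2FC 0.13), and Nr1h3 had 68 and 43.6 (log2FC −0.64, adjusted p = 0.131 in the DESeq2 test). Mylip, another LXR target, which marks lipoprotein receptors for degradation, was increased with a log2FC of 0.37.

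None of the 4 genes that lead from citrate and acetate to palmitate was called in the DESeq2 test, and 0 of them had an unadjusted p under 0.05. Fasn, the fatty acid synthase, had the highest mean count of the set and differed little between the groups, with means of 24392 and 25687 (log2FC 0.07, SE 0.08, adjusted p = 0.543 in the DESeq2 test). Its interval of −0.09 to 0.24 left out a change of 0.5. Acly, which splits citrate into acetyl-CoA, had means of 14035 and 15557 (log2FC 0.15, SE 0.08, adjusted p = 0.155 in the DESeq2 test).

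Acss2, which makes acetyl-CoA from acetate, had means of 487 and 543 and the highest log2FC of the step (0.16, SE 0.13, adjusted p = 0.388 in the DESeq2 test). Acaca, the acetyl-CoA carboxylase that commits carbon to fatty acids, had the lowest, with means of 3160 and 2820 (log2FC −0.16, SE 0.09, adjusted p = 0.152 in the DESeq2 test). The 4 intervals reached at most 0.41 and so lay below 0.5. Fasn, Acly and Acaca are on chromosome 11, whose median gene had a log2FC of −0.16. With that median taken out, Acly (0.31, adjusted p = 0.00136) and Fasn (0.23, adjusted p = 0.0285) were increased in the recomputed Wald test and Acaca was at −0.01.

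The genes of desaturation and elongation were split. Fads1 and Fads2, the desaturases of polyunsaturated fatty acids, lie together on chromosome 19 and were both increased past 0.5. Fads1 rose from 6877 to 11974 (log2FC 0.80, SE 0.08, adjusted p = 6.09e-22 in the DESeq2 test), and Fads2 rose from 7836 to 13326 (log2FC 0.77). Fads3, the relative beside them on chromosome 19, had means of 12526 and 16127 and a log2FC of 0.36.

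Scd1 and Scd2 make monounsaturated fatty acids and also lie on chromosome 19. Scd1 had means of 7029 and 8836 (log2FC 0.33), and Scd2 had 18646 and 21055 (log2FC 0.18). Chromosome 19 had a median log2FC of 0.34, the highest of the autosomes. With it taken out, Fads1 (0.46) and Fads2 (0.42) remained increased, Scd1 was at −0.01 and Scd2 was at −0.17, where it was called as decreased (adjusted p = 0.047 in the recomputed Wald test).

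Of the elongases, Elovl5, which acts on polyunsaturated chains, had means of 3901 and 3861 (log2FC −0.01, SE 0.09, adjusted p = 0.923 in the DESeq2 test). Elovl6, which lengthens palmitate, had means of 1186 and 1125 and the lowest log2FC of the step (−0.08, SE 0.19, adjusted p = 0.803 in the DESeq2 test). The interval of Elovl5 ran from −0.19 to 0.16, and that of Elovl6, a less abundant gene, from −0.44 to 0.29.

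**Figure D3:**
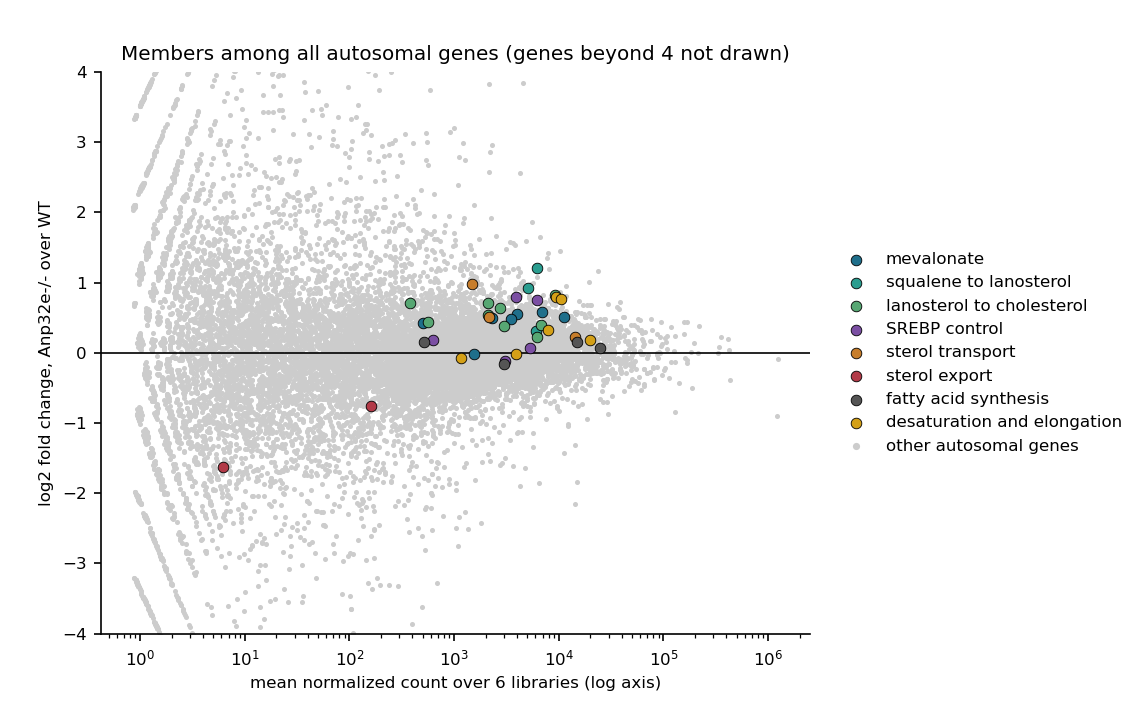
Log2FC of Anp32e-/- over WT MEFs against the mean normalized count over 6 libraries (log axis) for autosomal genes with an adjusted p (grey) and for the 39 genes, coloured by step; 266 autosomal genes beyond an absolute log2FC of 4 are not drawn. The genes of the set are abundant, and the sterol enzymes other than Pmvk lie above 0 and within the cloud.

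By a Wald test against an absolute log2FC of 0.5, which asks for more than an estimate past 0.5, 6 autosomal genes of the set were increased: Sqle, Lss, Cyp51, Insig1, Stard4 and Fads1. In this test 3.32% of autosomal genes were increased. The 95% interval lay above 0.5 for 9 of the 39 genes. Among all autosomal genes with an adjusted p, at any mean count, the log2FC estimates of the set were not extreme. Sqle stood at the 92.9 percentile of log2FC, Stard4 at 91.0 and Lbr at 68.6. Ranked by the Wald statistic among the same genes, Sqle was 48th, Stard4 516th and Lbr 2469th. The chromosome medians were left in for all of these values. Sqle, Stard4 and Fads1 lie on chromosomes 15, 18 and 19, and with the medians taken out their log2FC was 0.89, 0.67 and 0.46.

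Whole chromosomes differed between the groups, and this moved with the calls. The median log2FC of genes with a mean of at least 10 ran from −0.35 on chromosome 14 to 0.34 on chromosome 19, and it was above 0.2 on the 5 chromosomes from 15 to 19, where 40% of genes were increased. These chromosomes held 11 of the 37 autosomal genes of the set, and 10 of the 11 were increased. Of the 26 on the other autosomes 13 were increased, against 11.4% of the 13511 autosomal genes there, and the median log2FC of the 26 was 0.26 against −0.06.

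The sterol enzymes were spread over the genome. On the autosomes other than 15 to 19 lay 14 of them, and 12 of these were increased. Fdft1 was increased on chromosome 14, Sc5d on chromosome 9 and Msmo1 and Mvd on chromosome 8, where the median gene had a log2FC of −0.35, −0.22 and −0.10. With these medians taken out, the log2FC was 0.66 for Fdft1 and 0.60 for Sc5d. With the chromosome medians taken out, 14 of the 17 autosomal sterol enzymes were increased, with a median of 0.55, and 11.8% of autosomal genes were. Tm7sf2 lost its call (0.37, adjusted p = 0.0854 in the recomputed Wald test).

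Over the 37 autosomal genes, 23 were again increased with the chromosome medians taken out, of which 19 were increased in both. The 4 lost were Tm7sf2, Npc1, Scd1 and Scd2, and the 4 gained were Acly, Fasn, Npc2 and Scap. What made whole chromosomes differ, and its part in these values, was not tested.

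**Figure D4:**
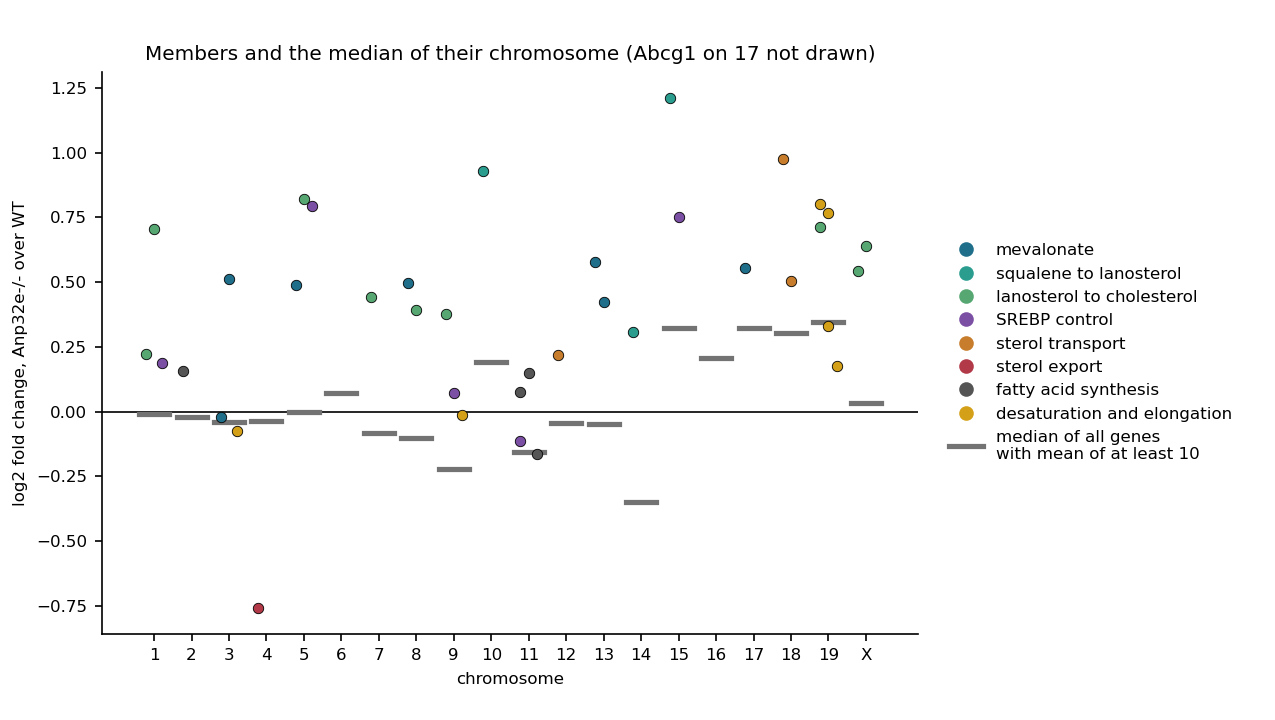
Log2FC of the genes of the set by chromosome, coloured by step, with the median of all genes with a mean of at least 10 on that chromosome as a grey bar; Abcg1 (−1.63 on chromosome 17) is not drawn. Sterol enzymes lie above the bar of their chromosome, also on chromosomes 8, 9 and 14 where the bar is below 0, and Scd1 and Scd2 lie at or below the bar of chromosome 19.

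RefSeq promoter windows (GRCm38.p6, 250 bases before to 50 after the start) were matched for 30 of the 39 genes, of which 17 were increased. Windows were not matched for Fdps, Fdft1, Sqle, Stard4, Npc1, Abcg1, Scd1, Scd2 and Fads1. With both strands searched, CCAAT was in the windows of 24 of the 30 genes, and in those of 41.1% of 27025 genes and 43.6% of the 9828 genes with a mean of at least 50. Among the 17 increased genes 15 held it, and 9 of the other 13 did.

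GGGCGG was in the windows of all 17 increased genes and of 8 of the other 13, against 70.5% of genes with a mean of at least 50 and 38.2% of all genes. CACGTG was found for 7 of the 30 genes, against 12% of those with a mean of at least 50. TCACNCCAC was found for Hmgcs1 alone, against 1.44% of all genes. The full sterol regulatory element, which holds TCACNCCAC within it (0.0999% of all genes), and the LXR element (0.0148%) were found for none of the 30. Only exact matches were counted, so a promoter without a match may still hold a variant of the element. The printed Srebf2 window, for example, holds tcaccccat, which differs from TCACNCCAC in its last base and was not counted. In the Fasn window 2 of the 3 CCAAT matches share bases, as a match on one strand runs into a match on the other.

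The rest of lipid metabolism held genes called in both directions. Of 135 other lipid genes with an adjusted p, 35 were increased and 28 decreased, with a median log2FC of 0.04, where 21.2% of the autosomal genes that reached a mean of 50 were increased and 17.7% decreased. The chromosome medians were left in for these lists, and 40% of genes on chromosomes 15 to 19 were increased. Rce1, Soat2, Vldlr, Chka, Hacd2, Slc25a1 and Acaa2, named below, lie there, whereas Paqr3, Lpl, Lrp8, Lrp1 and Fabp5 do not. The part of the chromosomes in these calls was not tested. The 13 genes of SREBP processing and sterol sensing had a median of −0.03, with 2 increased and 3 decreased. Paqr3, which anchors SCAP and SREBP at the Golgi, had the highest log2FC (0.63), and Trim13 the lowest (−0.80). The coat proteins that carry SCAP and SREBP out of the endoplasmic reticulum, Sec23a (−0.42) and Sec24d (−0.36), were decreased, and the proteases that release SREBP, Mbtps1 (0.09) and Mbtps2 (−0.09), were not called.

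Farnesyl diphosphate also feeds the isoprenoid branches. Of their 12 genes 3 were increased and 1 was decreased, with a median of 0.09. The highest of those called was Rce1 (0.62), a protease of prenylated proteins, and the lowest was Fnta (−0.33), a subunit of the farnesyltransferase.

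Of 15 genes of sterol esters and oxysterols, 3 were increased and 4 decreased, with a median of 0.04. Soat2, which esterifies cholesterol, had a computed mean below 3 counts in WT and of 16.9 in Anp32e-/- MEFs, at least 5.63-fold higher against a floor of 3 counts. Cyp7b1, an oxysterol hydroxylase, fell from 40.7 to 8.03 (log2FC −2.34). The abundant sterol acyltransferase Soat1 was decreased by less, with means of 5531 and 4594 (log2FC −0.27).

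Lipoprotein uptake had a median of 0.58, with 7 of 10 genes increased and 0 decreased in the DESeq2 test, and 0 were decreased at an unadjusted p under 0.05. Lpl, which releases fatty acids from lipoproteins, rose from 60.8 to 247.5 normalized counts and had the highest log2FC (2.02), and Lrp8 had the lowest of those called (0.39). Vldlr, a receptor of the LDL receptor family, rose from 426 to 891 (log2FC 1.06). Lrp1, a large receptor of the same family, rose from 12802 to 25765 (log2FC 1.01).

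Among 19 genes of glycerolipid synthesis 7 were increased and 3 decreased, with a median of 0.22, from Chka (0.69), a choline kinase, to Lpin3 (−0.83), a phosphatidate phosphatase. Of the 7 increased, Chka, Lpin2, Dgat1, Pcyt1a and Agpat1 lie on chromosomes 15 to 19, and Agpat2 and Agpat3 do not. Among 27 other genes of fatty acid synthesis and activation 6 were increased and 2 decreased, with a median of 0.07. The highest of those called was Hacd2 (0.92), a dehydratase of the elongation cycle, and the lowest was Oxsm (−0.99), a mitochondrial synthase. Slc25a1, which exports citrate from mitochondria for Acly, was increased with a log2FC of 0.60.

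Among 22 genes of fatty acid oxidation, which breaks down what Fasn and its partners make, 4 were increased and 11 decreased, beside 14.2% decreased among all autosomal genes and 17.7% among those with a mean of at least 50. Their median log2FC was −0.21, from Acaa2 (0.31), a mitochondrial thiolase, to Ehhadh (−1.62), a peroxisomal enzyme. Past 0.5, 3 were decreased and none was increased. Of 17 lipid droplet genes and PPAR targets 3 were increased and 4 decreased, with a median of −0.02. Fabp5, a fatty acid binding protein, had the highest log2FC (1.20). Ppara was at least 6.32-fold lower in Anp32e-/- MEFs, where it was below the floor of 3 counts, and Plin2, a coat protein of lipid droplets, fell from 12803 to 7173 (log2FC −0.84).

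**Figure D5:**
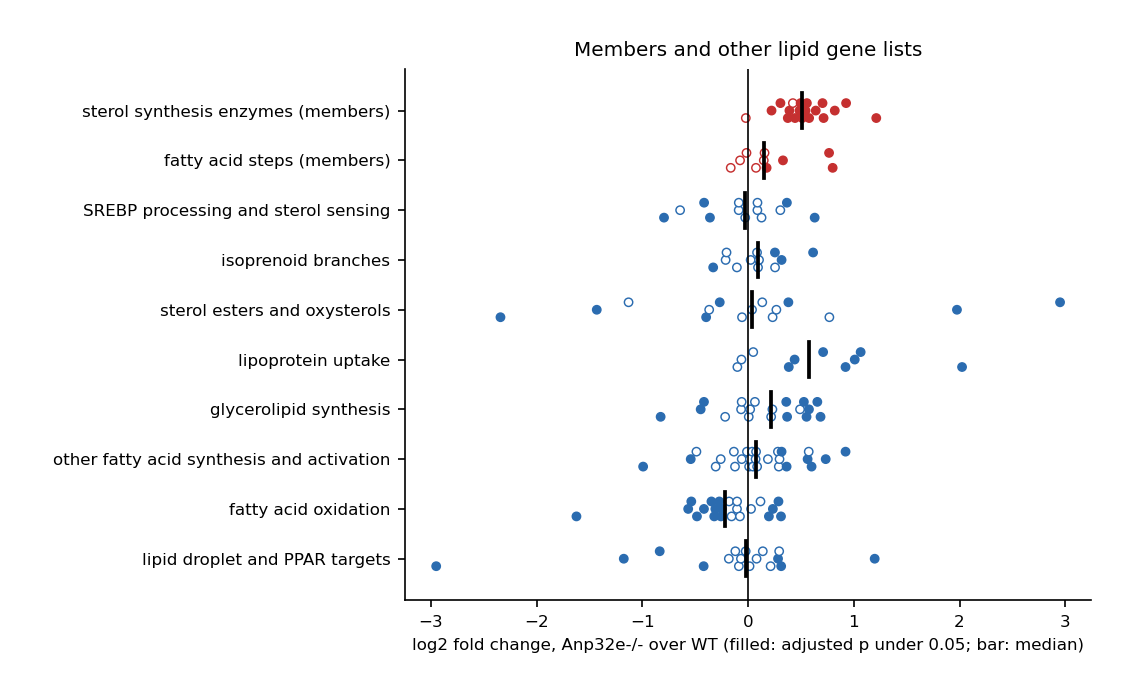
Log2FC of Anp32e-/- over WT MEFs for the sterol synthesis enzymes and fatty acid steps of the set (red) and for 8 other lipid gene lists (blue); each point is a gene, filled where its adjusted p is under 0.05, and black bars are medians. The sterol synthesis enzymes (median 0.51) and lipoprotein uptake (0.58) have the highest medians and fatty acid oxidation (−0.21) the lowest. The chromosome medians are left in.

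Several other properties of the libraries went with genotype. Anp32e had computed means of 3259 in WT and 1121 in Anp32e-/- MEFs (log2FC −1.54). Xist was at 5111 in WT and at the floor in Anp32e-/- MEFs, whereas the Y-linked Ddx3y, Kdm5d, Eif2s3y and Uty were at the floor in WT and between 663 and 1103 in Anp32e-/- MEFs, so that genotype and the sex of the embryos cannot be told apart. Of 11 fibroblast markers, 10 were above the floor in both groups, and Lum was below it in both. The 11 markers summed to 474080 in WT and 495320 in Anp32e-/- MEFs, most of it Vim (330720 and 330670). Of the 11, 7 were increased and 1, Pdgfra, was decreased (log2FC −0.36), against 16.8% and 14.2% of autosomal genes. Dcn had the highest log2FC of these markers (4.44), with computed means of 12.7 and 275.

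Of 8 mesothelial markers 6 were increased and 1, Krt19, was decreased. Their sum was 9724 and 11971, and Wt1 was at the floor in WT and at 600.5 in Anp32e-/- MEFs. The adipocyte markers summed to 720 and 1861, nearly all of it Fabp4 (680 and 1820), while Adipoq and Plin1 were at the floor and Lep and Retn had no reads. The macrophage markers summed to 350 and 261, the endothelial markers to 3151 and 2849 (mostly Kdr), and the epithelial markers to 24.6 and 150. Of the epithelial sums, Cdh1 made up 5.98 in WT and 128 in Anp32e-/- MEFs (log2FC 4.42), and Cldn4 14.7 and 10.1. The part of these cell types in the values of the lipid genes was not tested.

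Acat2 has a near-identical neighbour, Acat3 (mean 6337, log2FC 0.13), with which it may share reads. The choice of transcript made little difference, since 28 of the 39 genes had 1 transcript with reads and the transcripts of the others differed by at most 0.02 in log2FC. Some exons overlap other genes in GENCODE. For Fdps 26.7% and for Tm7sf2 12.1% of exonic bases lie in another gene of the same strand, and for Fdft1 18.3%, for Scap 13.2% and for Hmgcs1 12.1% lie in a gene of the opposite strand. Whether counting used the strand is not given in the sources used here, so reads of these pairs may not be told apart.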

How the data were processed

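RNA-Seq libraries of 3 WT and 3 Anp32e-/- MEF samples were examined, grouped by the genotype in their labels. The authors used RNA-STAR to align reads to mm10 and Subread featureCounts to count them per RefSeq transcript, and compared the groups with DESeq2 at default settings. The deposited signal column is the authors' mean over the 6 libraries of counts divided by size factors. The log2 fold changes and standard errors are the authors' own, and the deposited score column is their Wald statistic, which differed from log2FC over SE by at most 1.3e-13. The p-values are those of the authors, adjusted by the Benjamini-Hochberg method after independent filtering. These columns were used because the deposited table holds no counts per library, so total counts, replicate SD and the planned model on counts could not be had, and the SE is the precision of each value.

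Of 42361 transcripts 42203 were matched to a gene (RefSeq, GRCm38.p6), and 35342 had reads. For each gene, the transcript of highest mean was taken. The main counts cover autosomal genes, as in the study. Group means followed from mean and log2FC, taking groups of equal size, means of 3 counts or less were treated as a floor, and 95% intervals are log2FC ± 1.96 SE. The members and lists were chosen with earlier results of these data known, so no list was tested. Every member was named with its log2FC, and in each step the highest, the lowest and all that were not called were given in full. Of each other lipid list the highest and lowest called genes were named. Fads3, Mylip, Nr1h2, Nr1h3, Sec23a, Sec24d, Mbtps1, Mbtps2, Soat1, Vldlr, Lrp1, Slc25a1 and Plin2 were added after their values were seen. Lpin2, Dgat1, Pcyt1a, Agpat1, Agpat2 and Agpat3 were added to give the chromosomes of the increased glycerolipid genes. Python 3.11.15 with numpy 2.4.6, pandas 2.3.3, scipy 1.17.1 and matplotlib 3.10.9 was used, and the recomputed Wald tests were tested on simulated data. The alternatives were the X and Y chromosomes kept, adjustment over genes, means of at least 10 and 50, a second transcript, the chromosome or overall median taken out, a Wald test against an absolute log2FC of 0.5 and motifs on the plus strand.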

Additional observations from a re-analysis of the deposited data

How the results depend on the processing

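Of the counts, medians and motif matches under each alternative, 101 stayed within 1.5 times or within the spread and 15 moved. With the members on chromosomes 15 to 19 left out, an alternative chosen after seeing the data, the increased members went from 23 of 37 to 13 of 26, those past 0.5 from 14 to 6 and the median log2FC from 0.39 to 0.264. A Wald test against an absolute log2FC of 0.5 left 6 increased and 0 decreased members, with 0 decreased also at an unadjusted p under 0.05, whereas Abca1 was called in the DESeq2 test of the authors. With the chromosome medians taken out, 2 members were decreased in place of 1. The step medians were then 0.7362 for squalene to lanosterol, 0.2929 for SREBP control, 0.2648 for sterol transport, −1.336 for sterol export and 0.09579 for desaturation and elongation. Scd1 and Scd2 changed sign, to −0.01429 and −0.1691. At means of at least 10 and at least 50, sterol export held Abca1 alone and its median was −0.7587. TCANNCCAC, a looser motif chosen after seeing the data, matched 3 genes in place of 1, and CCAAT on the plus strand alone matched 13 in place of 24. Of the values for single members 285 kept their direction and their side of the threshold, and each of the other 11 changed with the chromosome medians taken out. The cause was not tested. No paired analysis was possible because the table holds no values per library, and for the same reason leaving out each replicate could not be run.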
